A study of Mus musculus with 46 samples.

Results

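Microglia (MG) were compared with bone marrow-derived macrophages (BMDM) from the same gliomas after these had regrown following radiation (IR). The libraries are those labelled as IR recurrence: 8 of the 46 RNA sequencing libraries of the study, 4 of MG and 4 of BMDM, paired by mouse (68343, 68344, 68345 and 68346) of 23 mice in all. Each pair came from 1 mouse, and the series asked how the 2 populations respond to therapy in regressing and in progressing tumours. Gliomas had been started in Ink4a/Arf KO/KO mice with the nTVA transgene by injecting DF1 cells, a chicken fibroblast line that makes the RCAS-PDGFB-HA retrovirus, into the right frontal cortex at 5 to 6 weeks of age. All groups used here share that genotype and that PDGFB-driven tumour, so no group lacks the Ink4a/Arf deletion. Vehicle tumours (4 mice) and tumours that recurred after IR together with BLZ945, an inhibitor of the CSF1 receptor (4 mice), served for comparison of the gap between the populations. The labels give neither the radiation dose nor the time to recurrence. Both populations had been sorted from live CD45+CD11b+ cells without Ly6C and Ly6G on their surface, the CD49d- cells as MG and the CD49d+ cells as BMDM. The split therefore rests on 1 surface integrin, CD49d, the product of Itga4, and a cell of either origin is labelled by it.

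Microglia are the resident macrophages of the brain. They arise from yolk sac progenitors, renew themselves locally and depend on CSF1 receptor signalling and on the transcription factor Sall1. Macrophages of bone marrow origin enter a glioma from the blood as CCR2-expressing monocytes, and can present antigen to T cells on MHC class II molecules. Both populations gather in gliomas, where they meet the same tumour environment.

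Total counts were 11831889 to 14073866 in 7 of the 8 libraries and 4597962 in MG of mouse 68344, where 10944 genes had at least 10 counts. Levels are log2 CPM values, counts scaled by library size, with a prior count of 1, and a row of 4 values gives mice 68343, 68344, 68345 and 68346 in this order. Differences are MG minus BMDM within a mouse, on the log2 scale, with the standard error (SE) and the Benjamini-Hochberg adjusted p of edgeR's quasi-likelihood test over 4 pairs of libraries; genes with an adjusted p below 0.05 are said to have passed. Ptprc and Itgam, which encode the CD45 and CD11b of the gate, were present in all 8 libraries, Ptprc at 8.36 to 9.21 log2 CPM and Itgam at 9.44 log2 CPM or more. Cdkn2a, the gene of the deleted Ink4a/Arf locus, was low throughout, with 0.30, 1.12, 0.10 and 0.10 log2 CPM in MG and -2.17, -1.35, -0.81 and -1.06 in BMDM. The Y-linked and Xist levels of both libraries of each mouse matched in 4 of 4 mice. All 4 pairs carried Y-linked RNA, so this match could not reveal a swap of libraries between these mice. Lars2 and Malat1, used as signs of RNA handling, did not pass between the populations (-0.13 ± 0.61 and -0.07 ± 0.42). In bulk RNA of sorted cells, fewer cells of a type and less RNA per cell cannot be told apart, here and in every result that follows.

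MG of recurrent tumours carried more RNA of 15 of 20 microglial genes, of the chemokines Ccl3 and Ccl4 and of Csf1. BMDM carried more RNA of 7 of 10 MHC class II genes, of the monocyte receptor Ccr2, of 8 of 21 C-type lectin receptor genes and of Arg1 and Mrc1. Of 15901 genes tested, 113 were higher and 245 lower in MG, together 2.25% (0.711% higher and 1.54% lower). The differences of the genes that were lower in MG were larger, with a median size of 2.73 against 1.91, and 58 of the 245 but 4 of the 113 exceeded 4. Every MG library lay above every BMDM library for 109 of the 113 genes, and below for 239 of the 245, which over all genes holds for 8.52% and 10.7%. The spread in this fit is shared by all 46 libraries. A fit of the 8 libraries alone gave 2132 genes higher and 1703 lower of 12481 (30.7%), with 356 of the 358 among them, and DESeq2 gave 292 and 355. Without mouse 68343, 68344, 68345 or 68346 the calls numbered 121, 191, 167 and 152, and 108 genes (34 higher, 74 lower) passed in the full fit and in each of these refits.

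**Figure D1:**
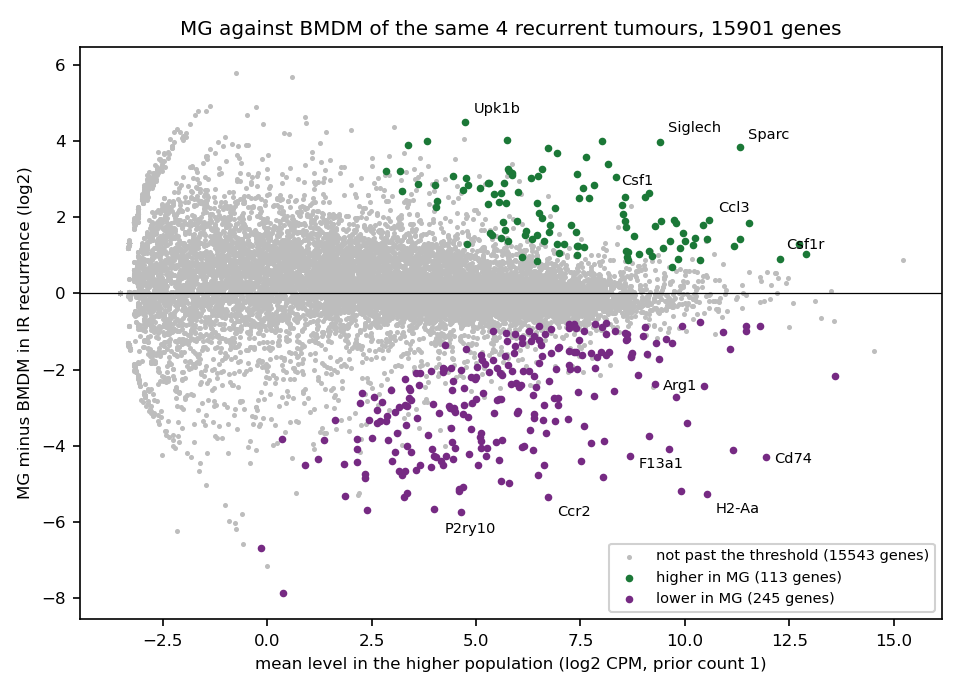
MG minus BMDM difference (y axis, log2) of 15901 genes against the mean level in the higher population (x axis, log2 CPM), from 4 mice with recurrent tumours after IR. The 113 genes higher in MG (green) reach 4.50, while the 245 lower in MG (purple) reach differences of up to 7.86 in size.

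Siglech, a sialic acid-binding lectin of microglia (chromosome 7, 55768178 to 55778925, plus strand in the GRCm38 annotation), had the smallest adjusted p of all genes. It stood at 9.48, 9.43, 9.25 and 9.41 log2 CPM in MG and 4.68, 6.52, 5.15 and 5.37 in BMDM, a difference of 3.97 ± 0.33 (SE, adjusted p = 6.87e-07). The libraries did not overlap, and the BMDM library of mouse 68344 was the highest of its group. The largest difference among genes higher in MG was that of Upk1b, a uroplakin of the tetraspanin family, with 5.30, 4.44, 5.01 and 4.19 log2 CPM in MG and -0.52, 1.001, 1.13 and -0.48 in BMDM (4.50 ± 1.02, adjusted p = 0.0161). Slc2a5, the fructose transporter, followed with 7.95, 8.45, 7.94 and 7.73 log2 CPM in MG and 2.84, 5.78, 3.66 and 3.81 in BMDM (4.00 ± 0.80, adjusted p = 0.0058). Sparc, a secreted matrix glycoprotein (chromosome 11, 55394500 to 55423183, minus strand), was at 11.15, 11.61, 11.07 and 11.39 log2 CPM in MG and 6.23, 8.88, 7.19 and 7.56 in BMDM (3.84 ± 0.49, adjusted p = 6.63e-05). In these 4 genes the MG libraries lay closer together than the BMDM libraries. With a mean of at least 3 log2 CPM in MG required, the other genes of the 10 largest differences in this direction were Mlph, a melanophilin of vesicle transport (4.02 ± 0.98, adjusted p = 0.0284), Tmem8c, the myomaker of muscle fusion (4.01 ± 0.69, adjusted p = 0.00343), the small heat shock protein Hspb3 (3.90 ± 0.97, adjusted p = 0.0393), the chemokine Cxcl13 (3.82 ± 0.94, adjusted p = 0.0295), Sall1 (3.70 ± 0.85, adjusted p = 0.0175) and Gpr56, an adhesion receptor also named Adgrg1 (3.58 ± 0.50, adjusted p = 0.000234). The calls for Siglech, Sparc, Tmem8c and Gpr56 remained in each refit without 1 of the mice. Slc2a5 missed the threshold without mouse 68343 (adjusted p = 0.0661). Mlph and Sall1 missed the threshold without any 1 of mice 68343, 68345 or 68346 (adjusted p from 0.0863 to 0.212). Upk1b, Hspb3 and Cxcl13 missed the threshold without any 1 of the mice (adjusted p from 0.0536 to 0.278).

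Among genes lower in MG with a mean of at least 3 log2 CPM in BMDM, the 10 largest differences began with P2ry10, a lysophospholipid receptor of lymphocytes and myeloid cells, at -2.12, -3.53, 0.34 and -0.12 log2 CPM in MG and 5.27, 3.70, 5.25 and 4.33 in BMDM (-5.73 ± 0.86, adjusted p = 0.000453). Atp8b4, a phospholipid flippase, stood at -0.60, -3.53, 0.01 and -2.63 log2 CPM in MG and 4.75, 2.95, 4.38 and 3.89 in BMDM (-5.65 ± 0.87, adjusted p = 0.00062). Clec10a, a galactose-binding lectin, was at -2.12, -3.53, -1.82 and -0.70 log2 CPM in MG and 4.25, 3.12, 3.20 and 2.58 in BMDM (-5.35 ± 1.15, adjusted p = 0.0114). These 3 genes were at or near the limit of detection in MG, where a value of -3.53 stands for no count in the shallow library of mouse 68344. Ccr2, the receptor that takes monocytes out of the marrow (chromosome 9, 124101950 to 124113557, plus strand), was at 1.63, 0.63, 2.17 and 1.14 log2 CPM in MG and 7.62, 6.49, 6.86 and 5.94 in BMDM (-5.34 ± 0.63, adjusted p = 3.22e-05). Klrk1, the activating receptor NKG2D, was at 0.60, -0.49, 0.19 and -2.07 log2 CPM in MG and 5.44, 4.55, 4.91 and 3.48 in BMDM (-5.14 ± 0.63, adjusted p = 3.96e-05). Emr4, an adhesion receptor of myeloid cells also named Adgre4, was -5.24 ± 1.06, adjusted p = 0.00873, and Dpp4, the CD26 peptidase of conventional dendritic and T cells, -5.18 ± 1.01, adjusted p = 0.00511. The class II genes H2-Aa, H2-Eb1 and Ciita, described below, complete the 10. The calls for P2ry10, Atp8b4, Ccr2 and Klrk1 remained in each refit without 1 of the mice. Dpp4 missed the threshold without mouse 68343 (adjusted p = 0.0576). Emr4 missed the threshold without either of mice 68345 or 68346 (adjusted p from 0.0708 to 0.0972). Clec10a missed the threshold without any 1 of mice 68343, 68344 or 68345 (adjusted p from 0.0547 to 0.119).

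**Figure D2:**
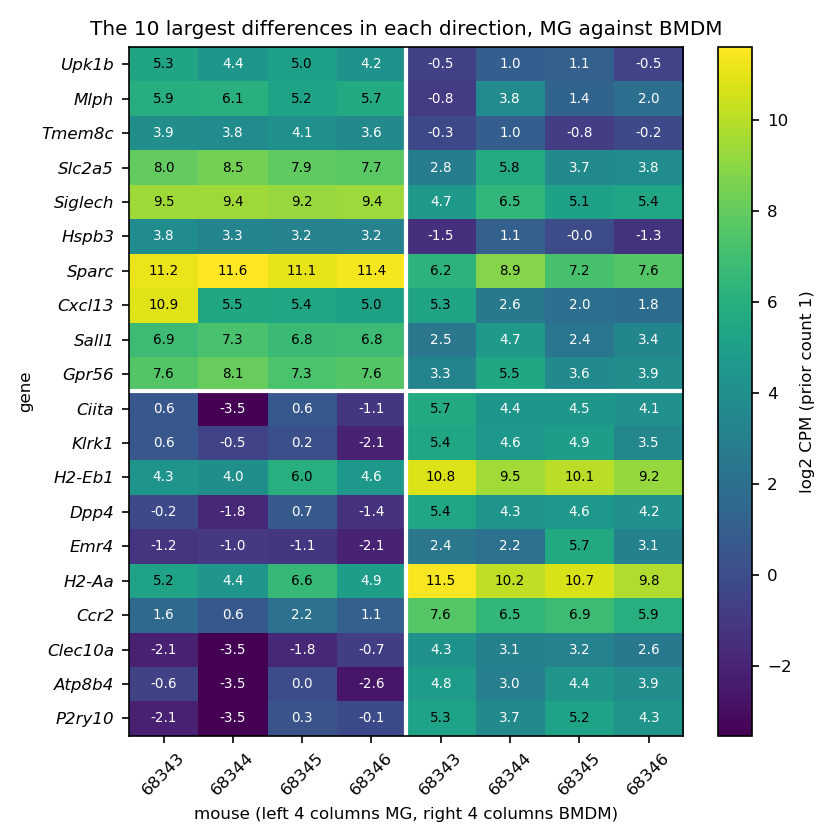
Levels (log2 CPM, colour and printed value) of the 10 genes with the largest difference in each direction among those with a mean of at least 3 log2 CPM in the higher population, in each of the 8 libraries, with mice in columns and the MG libraries on the left. The BMDM library of mouse 68344 holds the highest BMDM value of Siglech (6.52) and Sparc (8.88), and MG of mouse 68343 stands alone for Cxcl13 (10.89).

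Microglial genes were higher in MG. Of the 20 genes of the microglial identity list, 15 were higher, against 0.711% of all genes, and none was lower. The median difference was 2.14, against 0.00 over all genes tested. P2ry12, the ADP receptor that steers microglial processes, stood at 9.77, 10.08, 9.47 and 9.81 log2 CPM in MG and 7.29, 8.57, 7.92 and 7.99 in BMDM (1.84 ± 0.35, adjusted p = 0.0038). Gpr34, a lysophosphatidylserine receptor, was at 9.64, 9.81, 9.06 and 9.20 log2 CPM in MG and 6.70, 8.46, 7.38 and 7.50 in BMDM (1.91 ± 0.30, adjusted p = 0.00062). Sall1 was at 6.86, 7.26, 6.79 and 6.83 log2 CPM in MG and 2.50, 4.67, 2.41 and 3.40 in BMDM. Each MG library of these 3 genes lay above every BMDM library. The widely used markers Tmem119 (0.92 ± 0.37, adjusted p = 0.389) and Cx3cr1, the fractalkine receptor (0.60 ± 0.29, adjusted p = 0.601), did not pass, and BMDM held 8.67, 9.65, 9.34 and 9.38 log2 CPM of Tmem119. The mean level of the list was 8.46, 8.77, 8.25 and 8.43 in MG and 5.38, 7.10, 5.97 and 6.21 in BMDM. The BMDM library of mouse 68344 held more microglial RNA than the other 3, and its MG library was the shallow one. Without that mouse 11 of the 20 genes passed. Without mice 68343, 68345 and 68346 there were 5, 8 and 7, while 17 passed without the 5 mice of the study that have a library of few detected genes or sex-linked genes that do not match between their libraries (mouse 68344 among them), and 19 in the fit of the 8 libraries. In that last fit 17.1% of all genes were higher in MG. The call for Gpr34 remained in each refit without 1 of the mice. P2ry12 missed the threshold without mouse 68343 (adjusted p = 0.0575).

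Genes of blood-derived macrophages went the other way. Of 22, 15 were lower in MG, against 1.54% of all genes, none was higher, and the median was -2.60. The list holds Itga4, which the gate selects (chromosome 2, 79255426 to 79333123, plus strand): it stood at 2.31, 2.96, 2.87 and 3.22 log2 CPM in MG and 5.92, 5.99, 5.84 and 6.13 in BMDM (-3.14 ± 0.41, adjusted p = 0.000118), so MG kept RNA of it at a lower level. Klra2, a Ly49 lectin, was at 1.06, 1.48, 3.89 and 2.03 log2 CPM in MG and 6.34, 6.25, 7.38 and 6.50 in BMDM (-4.51 ± 0.52, adjusted p = 2.23e-05). Tgfbi, a secreted matrix protein, was at 8.51, 7.68, 8.22 and 7.74 log2 CPM in MG and 10.99, 9.79, 10.70 and 10.34 in BMDM (-2.42 ± 0.29, adjusted p = 3.22e-05). For neither of these 2 genes did the populations overlap. Cd44, the hyaluronan receptor, was at 5.52, 4.25, 5.16 and 4.83 log2 CPM in MG and 6.95, 5.95, 6.79 and 6.63 in BMDM (-1.64 ± 0.31, adjusted p = 0.00444). Of the other integrins, Itgb7 (-3.87 ± 0.62, adjusted p = 0.000929), the partner of Itga4, and Itgae (-3.16 ± 0.80, adjusted p = 0.0366), the CD103 of tissue-resident lymphocytes and dendritic cells, were lower in MG. Itgb3, the beta chain of the vitronectin receptor, was higher (3.21 ± 0.85, adjusted p = 0.0475), and the other 17 integrin genes tested did not pass. When mice 68343, 68344, 68345 and 68346 were left out in turn, 12, 11, 12 and 10 of the 22 genes were lower. The calls for Itga4, Klra2, Tgfbi and Itgb7 remained in each refit without 1 of the mice. Cd44 missed the threshold without mouse 68346 (adjusted p = 0.0556). Itgae and Itgb3 missed the threshold without any 1 of the mice (adjusted p from 0.105 to 0.314).

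MHC class II molecules show peptides of engulfed proteins to CD4 T cells. H2-Aa, H2-Ab1 and H2-Eb1 encode their chains, Cd74 the invariant chain that guards the groove, H2-DMa, H2-DMb1 and H2-DMb2 the peptide exchange factor, H2-Oa and H2-Ob its modulator, and Ciita the coactivator that acts at their promoters. Class II promoters commonly hold a Y box with the core ATTGG, bound by the NF-Y complex. The 110 bases before the start in RefSeq (GRCm38.p6) of 4 genes that passed, and of H2-Ob, which did not pass, are shown 5′ to 3′ on the strand of the gene, with capitals marking the core or its reverse complement CCAAT. H2-Ab1, Ciita and Cd74 are not shown.
H2-Aa, chr17:34287824-34287933, minus strand: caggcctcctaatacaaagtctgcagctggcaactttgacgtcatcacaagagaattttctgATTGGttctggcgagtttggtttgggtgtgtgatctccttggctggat
H2-Eb1, chr17:34305757-34305866, plus strand: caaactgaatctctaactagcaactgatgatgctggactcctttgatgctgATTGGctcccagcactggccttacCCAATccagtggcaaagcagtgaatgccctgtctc
H2-DMb2, chr17:34145139-34145248, plus strand: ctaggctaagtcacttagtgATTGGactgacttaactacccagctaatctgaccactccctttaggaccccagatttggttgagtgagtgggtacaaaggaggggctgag
H2-Oa, chr17:34092269-34092378, plus strand: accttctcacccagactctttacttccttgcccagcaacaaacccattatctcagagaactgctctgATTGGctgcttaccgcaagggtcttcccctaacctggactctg
H2-Ob, chr17:34238795-34238904, plus strand: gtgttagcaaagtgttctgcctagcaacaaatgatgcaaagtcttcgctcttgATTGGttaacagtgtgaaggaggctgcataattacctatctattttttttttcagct
The core began 48 bases before the start in H2-Aa, 59 and, as its reverse complement, 35 in H2-Eb1, 90 in H2-DMb2, 43 in H2-Oa and 57 in H2-Ob. H2-DMb1, which did not pass, has it at 61 bases, and neither of the 2 entries for H2-DMa has it in these 110 bases. Of all 32851 promoters in the table, 20.2% hold the core on either strand in this window. Genes that passed and genes that missed the threshold thus hold it, and a match of letters is a description only.

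The chain genes were among the largest differences between MG and BMDM. H2-Aa stood at 5.19, 4.36, 6.62 and 4.95 log2 CPM in MG and 11.46, 10.19, 10.71 and 9.78 in BMDM (-5.26 ± 0.52, adjusted p = 6.43e-06). H2-Eb1 was at 4.32, 3.99, 6.01 and 4.55 log2 CPM in MG and 10.83, 9.49, 10.07 and 9.22 in BMDM (-5.17 ± 0.51, adjusted p = 6.43e-06), and H2-Ab1 at 7.05, 6.60, 7.71 and 6.83 log2 CPM in MG and 12.11, 10.77, 11.33 and 10.43 in BMDM (-4.10 ± 0.46, adjusted p = 2.23e-05). In each mouse and for each chain the BMDM library was higher by at least 3.59 log2 units. Cd74 was at 7.55, 7.03, 8.49 and 7.48 log2 CPM in MG and 12.91, 11.83, 11.62 and 11.35 in BMDM (-4.30 ± 0.47, adjusted p = 1.69e-05). Ciita was at 0.60, -3.53, 0.62 and -1.11 log2 CPM in MG and 5.71, 4.41, 4.48 and 4.12 in BMDM (-5.09 ± 0.90, adjusted p = 0.00216), with no count in MG of mouse 68344. The exchange factor genes differed less: H2-DMb2 was at 3.04, 2.75, 2.92 and 2.67 log2 CPM in MG and 6.44, 5.05, 5.88 and 5.03 in BMDM (-2.78 ± 0.38, adjusted p = 0.000191), H2-DMa differed by -0.89 ± 0.25 (SE, adjusted p = 0.067) and H2-DMb1 by -0.87 ± 0.24 (SE, adjusted p = 0.0606). Of the modulator genes, H2-Oa passed (-1.45 ± 0.37, adjusted p = 0.0378) and H2-Ob did not (-0.19 ± 0.50, adjusted p = 1), with 4.27, 4.37, 4.49 and 4.54 log2 CPM in MG and 4.65, 4.72, 4.61 and 4.46 in BMDM. In all, 7 of 10 genes were lower in MG and none was higher, with a median of -3.44, and H2-DMa and H2-DMb1 passed as well in the fit of the 8 libraries, giving 9. In that fit 13.6% of all genes were lower in MG. The calls for H2-Aa, H2-Ab1, H2-Eb1, Cd74, Ciita and H2-DMb2 remained in each refit without 1 of the mice. H2-Oa missed the threshold without any 1 of mice 68343, 68344 or 68345 (adjusted p from 0.117 to 0.452). None of 13 genes of MHC class I presentation passed, and their median was 0.00. The smallest p there belonged to the immunoproteasome subunits Psmb9 (-0.54 ± 0.21, adjusted p = 0.349) and Psmb8 (-0.48 ± 0.20, adjusted p = 0.428).

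**Figure D3:**
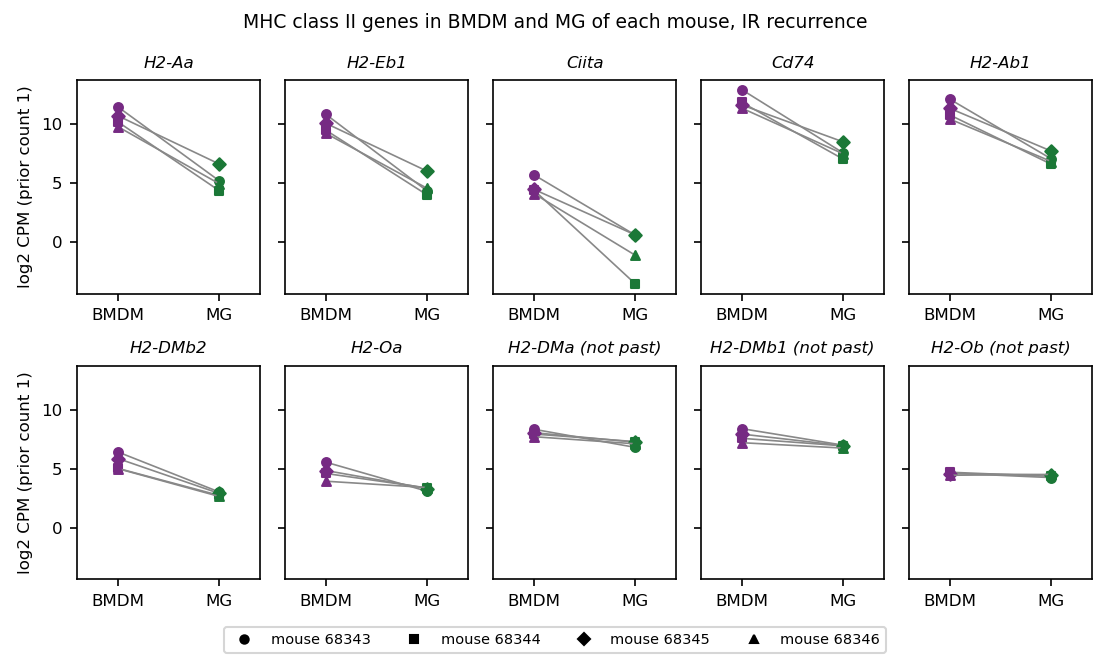
Levels (log2 CPM) of the 10 class II genes in BMDM and MG, with a line for each of the 4 mice and panels in order of the difference. Lines fall steeply from BMDM to MG for H2-Aa (-5.26), H2-Eb1 and Ciita, and lie nearly flat for H2-Ob (-0.19).

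Genes of dendritic cells and monocytes, which can share the CD49d+ gate, were given by lists. Of 12 dendritic cell genes, 5 were lower in MG and 1 was higher (median -1.78), against 1.54% and 0.711% of all genes. The 5 were the lectin Cd209a, Dpp4, the growth factor receptor Flt3, the lymph node homing receptor Ccr7 and the chemokine Ccl22. Flt3 was at 0.73, -0.49, 0.01 and -0.53 log2 CPM in MG and 4.64, 3.92, 3.54 and 3.71 in BMDM (-4.08 ± 0.57, adjusted p = 0.000217), and Ccr7 at 1.49, 0.63, 1.72 and 1.14 log2 CPM in MG and 6.11, 4.79, 5.09 and 5.11 in BMDM (-4.06 ± 0.76, adjusted p = 0.0037). Both were low in MG and did not overlap between the populations. Fscn1, the actin-bundling fascin, was the 1 that was higher in MG, with 6.25, 6.04, 6.94 and 6.80 log2 CPM in MG and 4.58, 4.34, 4.23 and 4.46 in BMDM (2.11 ± 0.49, adjusted p = 0.0201). The defining genes of cross-presenting dendritic cells did not pass: Clec9a and Xcr1 differed by -2.21 ± 1.61 (SE, adjusted p = 1) and -0.47 ± 0.90 (SE, adjusted p = 1). Summed over the 12 genes, RNA amounted to 149 to 272 CPM in MG and 230 to 360 CPM in BMDM. Of 7 genes of Ly6C-high monocytes, 3 were lower in MG: Ccr2, Chi3l3 (-4.05 ± 0.84, adjusted p = 0.00883), the lectin Ym1 now named Chil3, and Plac8 (-2.37 ± 0.55, adjusted p = 0.0188). Ly6c2, against which both populations were gated, was at 0.12, -3.53, -0.19 and -2.07 log2 CPM in MG and 4.16, 0.76, 2.88 and 0.04 in BMDM (-3.61 ± 1.11, adjusted p = 0.116), so that its RNA was highest in BMDM of mice 68343 and 68345. The part of dendritic cells or monocytes in the differences was not tested. The calls for Cd209a, Flt3 and Ccr7 remained in each refit without 1 of the mice. Ccl22 missed the threshold without either of mice 68343 or 68346 (adjusted p from 0.0599 to 0.0663). Chi3l3 missed the threshold without either of mice 68345 or 68346 (adjusted p from 0.0599 to 0.0722). Fscn1 and Plac8 missed the threshold without any 1 of the mice (adjusted p from 0.0629 to 0.17).

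In the alternative activation and C-type lectin lists, members that passed were all lower in MG. Of 18 alternative activation genes, 8 were lower and none was higher (median -2.61), and 15 of 17 were lower in the fit of the 8 libraries. Over all genes 1.54% were lower in the fit of all 46 libraries and 13.6% in that of the 8. Arg1, the arginase that breaks down arginine, stood at 8.56, 4.84, 7.52 and 6.75 log2 CPM in MG and 11.16, 6.53, 10.27 and 9.13 in BMDM (-2.37 ± 0.54, adjusted p = 0.0168), and both libraries of mouse 68344 were the lowest of their group. Mrc1, the mannose receptor CD206, was at 3.83, 2.92, 4.25 and 3.80 log2 CPM in MG and 7.15, 6.19, 5.84 and 6.32 in BMDM (-2.68 ± 0.56, adjusted p = 0.00883). F13a1, the coagulation factor XIII subunit made by macrophages, was at 4.87, 3.00, 5.46 and 4.33 log2 CPM in MG and 8.70, 8.25, 8.81 and 9.03 in BMDM (-4.26 ± 0.45, adjusted p = 1.31e-05). Neither Mrc1 nor F13a1 overlapped between the populations. The chemokines Ccl17 (-4.27 ± 0.85, adjusted p = 0.0059) and Ccl22 (-3.72 ± 0.75, adjusted p = 0.00634), which draw CCR4-expressing T cells, were lower as well, while the cytokine Il10 did not pass (-3.98 ± 1.07, adjusted p = 0.0523). Of 10 genes of macrophages at the borders of the brain, 4 were lower: F13a1, Ms4a7 at 4.08, 5.43, 6.86 and 5.77 log2 CPM in MG and 9.15, 9.45, 10.19 and 9.69 in BMDM (-4.08 ± 0.62, adjusted p = 0.000538), Pf4 (-3.17 ± 0.66, adjusted p = 0.00869) and Mrc1. Lyve1 and Cd163 of that list did not pass (-0.22 ± 0.90 and -2.54 ± 0.997). Of 21 C-type lectin receptor genes, 8 were lower and none was higher (median -2.19). Clec12a, an inhibitory receptor for uric acid crystals, was at 1.06, 1.86, 3.12 and 2.34 log2 CPM in MG and 4.89, 6.50, 6.88 and 6.17 in BMDM (-4.02 ± 0.61, adjusted p = 0.000538). Clec4n, the fungal receptor Dectin-2, was at 3.86, 3.77, 5.11 and 4.08 log2 CPM in MG and 8.05, 7.66, 8.51 and 8.07 in BMDM (-3.87 ± 0.57, adjusted p = 0.000425), and Clec4a2, an inhibitory receptor, at 4.78, 3.36, 4.90 and 3.92 log2 CPM in MG and 6.49, 5.67, 6.88 and 6.03 in BMDM (-2.03 ± 0.40, adjusted p = 0.00589). All BMDM libraries of these 3 lectins lay above all MG libraries. Igf1, a growth factor that macrophages secrete, was higher in the BMDM library of every mouse, but did not pass (5.10, 7.01, 5.36 and 6.19 log2 CPM in MG and 6.55, 7.52, 6.91 and 7.32 in BMDM, -1.16 ± 0.40, adjusted p = 0.202). The calls for F13a1, Ms4a7, Clec12a and Clec4n remained in each refit without 1 of the mice. Ccl17 missed the threshold without mouse 68343 (adjusted p = 0.0819). Clec4a2 missed the threshold without mouse 68346 (adjusted p = 0.053). Ccl22 and Pf4 missed the threshold without either of mice 68343 or 68346 (adjusted p from 0.058 to 0.106). Arg1 missed the threshold without any 1 of mice 68343, 68345 or 68346 (adjusted p from 0.11 to 0.145). Mrc1 missed the threshold without any 1 of mice 68343, 68344 or 68346 (adjusted p from 0.0615 to 0.109).

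Chemokine genes split by population. Of 21, 3 were higher and 5 lower in MG, against 0.711% and 1.54% of all genes. In the fit of the 8 libraries 7 of 20 were higher and 9 lower, against 17.1% and 13.6% of all genes. Ccl3 was at 10.72, 10.08, 10.68 and 10.86 log2 CPM in MG and 8.58, 8.76, 8.59 and 8.70 in BMDM (1.93 ± 0.32, adjusted p = 0.00138), and Ccl4 at 11.54, 10.96, 11.77 and 11.83 log2 CPM in MG and 9.62, 9.68, 9.85 and 9.59 in BMDM (1.84 ± 0.36, adjusted p = 0.0045), both macrophage inflammatory proteins, and the MG libraries of these genes lay above all BMDM libraries. Cxcl13, the B cell chemokine, was at 10.89, 5.54, 5.44 and 5.05 log2 CPM in MG and 5.33, 2.56, 1.99 and 1.82 in BMDM, and the MG library of mouse 68343 stood far above the other 3. BMDM held more RNA of Cxcl16, the ligand of CXCR6, at 7.85, 7.70, 8.37 and 8.13 log2 CPM in MG and 9.39, 9.18, 9.43 and 9.23 in BMDM (-1.29 ± 0.22, adjusted p = 0.00127), and of Cxcl14 at 3.89, 4.06, 5.21 and 4.67 log2 CPM in MG and 6.74, 5.95, 7.31 and 7.002 in BMDM (-2.30 ± 0.40, adjusted p = 0.00183), beside Ccl17, Ccl22 and Pf4. Of 16 chemokine receptor genes, 3 were lower in MG and none was higher: Ccr2, Ccr7 and Cxcr4, the receptor of the retention signal CXCL12, at 4.96, 4.56, 5.00 and 4.83 log2 CPM in MG and 7.58, 7.54, 7.19 and 7.40 in BMDM (-2.59 ± 0.51, adjusted p = 0.00527). The MG and BMDM libraries did not overlap for Cxcl16, Cxcl14 or Cxcr4. The calls for Ccl3, Cxcl16 and Cxcl14 remained in each refit without 1 of the mice. Ccl4 missed the threshold without mouse 68346 (adjusted p = 0.0523). Cxcr4 missed the threshold without mouse 68343 (adjusted p = 0.0552).

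Of 31 cytokine and growth factor genes, 4 were higher in MG and 1 was lower, against 0.711% and 1.54% of all genes. Csf1, the ligand of the CSF1 receptor, was at 8.12, 8.97, 8.56 and 8.59 log2 CPM in MG and 6.11, 7.03, 5.10 and 5.89 in BMDM (2.52 ± 0.55, adjusted p = 0.012). Its receptor gene Csf1r, the target of BLZ945, was at 12.17, 12.63, 12.04 and 12.22 log2 CPM in MG and 10.97, 11.95, 11.11 and 11.46 in BMDM (0.89 ± 0.22, adjusted p = 0.0311), so both members of the axis were higher in MG, and the other 7 genes of the CSF1 and GM-CSF list did not pass. Tnf stood at 10.06, 9.41, 9.58 and 9.93 log2 CPM in MG and 8.09, 7.88, 7.43 and 7.88 in BMDM (1.93 ± 0.43, adjusted p = 0.0146). Il1a was at 10.94, 10.85, 11.36 and 11.58 log2 CPM in MG and 9.20, 9.92, 10.22 and 10.39 in BMDM (1.25 ± 0.26, adjusted p = 0.00756), and Pdgfb, also the oncogene that the retrovirus of this model carries, at 5.86, 5.81, 6.59 and 6.44 log2 CPM in MG and 4.17, 4.72, 4.67 and 5.05 in BMDM (1.53 ± 0.37, adjusted p = 0.027). Whether reads of Pdgfb came from the cells or from viral RNA cannot be told apart from these counts. Hgf, the ligand of the MET receptor, was lower in MG, with 2.87, 3.72, 3.57 and 3.36 log2 CPM in MG and 4.86, 5.17, 5.42 and 5.44 in BMDM (-1.85 ± 0.41, adjusted p = 0.0143). Every MG library was above every BMDM library for Csf1, Csf1r, Tnf, Il1a and Pdgfb. Il1a missed the threshold without mouse 68343 (adjusted p = 0.104). Csf1, Tnf and Hgf missed the threshold without any 1 of mice 68343, 68345 or 68346 (adjusted p from 0.0599 to 0.122). Csf1r and Pdgfb missed the threshold without any 1 of the mice (adjusted p from 0.068 to 0.266).

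Of 18 genes of lipid-laden and disease-associated microglia, 3 were higher in MG: Csf1, the tetraspanin Cd9 at 10.13, 10.19, 10.11 and 10.36 log2 CPM in MG and 8.40, 9.11, 9.07 and 9.09 in BMDM (1.28 ± 0.25, adjusted p = 0.00574) and the protease inhibitor Cst7 at 8.42, 8.43, 8.15 and 8.40 log2 CPM in MG and 4.00, 6.40, 5.32 and 5.38 in BMDM (3.06 ± 0.61, adjusted p = 0.00618). Apoe, the lipid carrier, was higher in BMDM of every mouse without passing (12.45, 13.71, 12.85 and 13.06 log2 CPM in MG and 13.93, 15.05, 14.22 and 14.85 in BMDM, -1.50 ± 0.48, adjusted p = 0.15), and the median of that list was -0.22. Among 16 complement genes, Cfp, the properdin that stabilises the convertase of the alternative pathway, was lower in MG, with 4.48, 3.30, 4.88 and 4.30 log2 CPM in MG and 7.72, 5.71, 7.62 and 6.83 in BMDM (-2.74 ± 0.50, adjusted p = 0.00277). Its libraries did not overlap between the populations. The C1q chain genes C1qa, C1qb and C1qc did not pass (adjusted p from 0.806 to 0.994). Among 32 transcription factor genes, Sall1 and the immediate early gene Egr1 (1.42 ± 0.33, adjusted p = 0.0175) were higher in MG. Ahr, the aryl hydrocarbon receptor, was lower, at 1.37, 1.12, 1.57 and 1.56 log2 CPM in MG and 5.40, 4.62, 3.37 and 4.59 in BMDM (-3.12 ± 0.51, adjusted p = 0.0012), as were Runx3 (-2.45 ± 0.51, adjusted p = 0.00806) and Runx2 (-2.85 ± 0.68, adjusted p = 0.0245). The calls for Cfp and Ahr remained in each refit without 1 of the mice. Cd9 and Cst7 missed the threshold without mouse 68343 (adjusted p from 0.0769 to 0.0825). Egr1 missed the threshold without any 1 of mice 68343, 68345 or 68346 (adjusted p from 0.0861 to 0.157). Runx3 missed the threshold without any 1 of mice 68343, 68344 or 68346 (adjusted p from 0.0605 to 0.104). Runx2 missed the threshold without any 1 of the mice (adjusted p from 0.0672 to 0.222).

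Of 25 purinergic and other surface receptor genes, 7 were higher and 4 lower in MG, against 0.711% and 1.54% of all genes. The higher ones include P2ry12, Gpr34, Gpr56 and Siglech, which the microglial identity list also holds. Gpr84, a receptor of medium-chain fatty acids, was higher, with 8.60, 8.83, 9.50 and 9.25 log2 CPM in MG and 5.49, 6.93, 6.91 and 6.77 in BMDM (2.52 ± 0.44, adjusted p = 0.00208), and Gpr132, a receptor of lactate and oxidised lipids, lower, with -0.32, -1.76, 1.47 and 0.53 log2 CPM in MG and 4.75, 4.33, 4.18 and 4.54 in BMDM (-4.35 ± 0.79, adjusted p = 0.00272). Of 26 matrix and protease genes, Sparc and the protease Adamts1 (3.14 ± 0.68, adjusted p = 0.012) were higher, and Tgfbi and Mmp14, a membrane-bound collagenase (-2.57 ± 0.47, adjusted p = 0.00267), lower. Lag3, an inhibitory receptor that microglia share with T cells, was the 1 of 14 costimulation and checkpoint genes that passed, with 5.58, 5.73, 5.84 and 5.70 log2 CPM in MG and 2.74, 4.40, 2.88 and 3.35 in BMDM (2.38 ± 0.52, adjusted p = 0.0117). Of 20 pattern recognition receptor genes only Tlr8, a sensor of RNA, passed (-3.90 ± 0.79, adjusted p = 0.00676), of 15 iron and heme genes only Spic, a factor of iron-recycling macrophages (-3.67 ± 0.94, adjusted p = 0.0406), and of 18 sterol genes only Apoc2 (-3.55 ± 0.90, adjusted p = 0.0366), all lower in MG. None of 8 Fc receptor genes passed (median -0.05). The calls for Gpr84, Gpr132 and Mmp14 remained in each refit without 1 of the mice. Tlr8 missed the threshold without either of mice 68343 or 68344 (adjusted p from 0.0534 to 0.0818). Adamts1 and Lag3 missed the threshold without any 1 of mice 68343, 68345 or 68346 (adjusted p from 0.0556 to 0.113). Spic and Apoc2 missed the threshold without any 1 of the mice (adjusted p from 0.124 to 0.251).

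No member passed in the lists of cell division, p53 targets, interferon response and glycolysis. Of 32 cell cycle genes the median was -0.32, and Mki67, the antigen of dividing cells, stood at 6.26, 6.31, 5.96 and 6.10 log2 CPM in MG and 6.16, 6.19, 6.12 and 6.67 in BMDM (-0.13 ± 0.55, adjusted p = 1). The smallest p there were those of the replication helicase genes Mcm6 (-0.66 ± 0.31, adjusted p = 0.59) and Mcm3 (-0.34 ± 0.27, adjusted p = 1), and 8 of the 32 genes were lower and none higher in MG in the fit of the 8 libraries, where 13.6% of all genes were lower and 17.1% higher. Of 24 p53 target genes the median was 0.05, and 7 were higher and 1 lower in the fit of the 8 libraries. Cdkn1a, the cell cycle inhibitor p21, was at 8.98, 8.50, 8.89 and 8.92 log2 CPM in MG and 8.61, 8.39, 8.08 and 8.51 in BMDM (0.43 ± 0.21, adjusted p = 0.608), and passed in the fit of the 8 libraries (adjusted p = 0.013). Of 27 interferon-induced genes the median was -0.30, with the antiviral gene Ifi44 at -1.56 ± 0.55 (SE, adjusted p = 0.234) and the interferon regulator Irf7 at -0.64 ± 0.32 (SE, adjusted p = 0.645). Of 22 hypoxia and glycolysis genes the median was -0.11, with the phosphofructokinase Pfkp at -1.45 ± 0.40 (SE, adjusted p = 0.0599) and the vessel growth factor Vegfa at -1.35 ± 0.44 (SE, adjusted p = 0.147). The fit of the 8 libraries called 10 of 27 interferon-induced genes lower and 2 higher in MG, beside the same shares over all genes. It called 5 of the 22 hypoxia and glycolysis genes lower and 4 higher. A p that misses the threshold does not show that levels were alike: with 4 pairs the SE of Cdkn1a was 0.21 and that of Mki67 0.55.

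**Figure D4:**
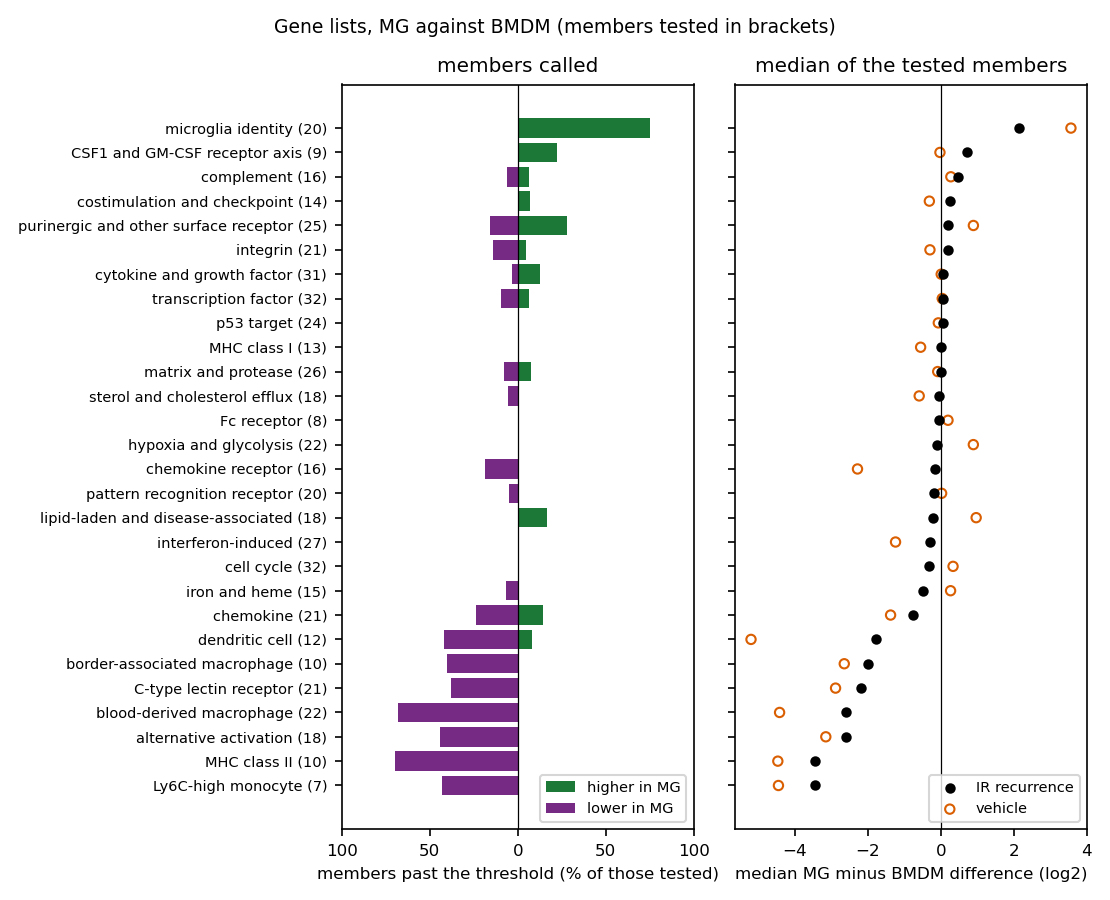
Left, share of the tested members of each list that were higher (green) or lower (purple) in MG after IR. Right, median MG minus BMDM difference (log2) in IR recurrence (filled) and in vehicle tumours (open). The microglia list lies farthest to the right (2.14), and the MHC class II and Ly6C-high monocyte lists farthest to the left (-3.44 and -3.45).

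Markers of cells outside the gate were low or did not pass. Of 15 T and NK cell genes, 8 B and plasma cell genes, 10 neutrophil genes and 8 mast cell genes, none passed, and their summed levels were at most 12.1, 32.6, 509 and 21 CPM in any library. Cd3d and Cd3e had no count in the 4 MG libraries. Among brain and tumour cells, none of 13 glioma and precursor genes passed, with sums of 436 to 928 CPM in MG and 161 to 371 CPM in BMDM. These ranges did not overlap. In the fit of the 8 libraries 11 of 12 were higher in MG, against 17.1% of all genes. Pdgfra, the receptor of PDGF on glioma cells, was at 6.20, 6.70, 7.44 and 7.71 log2 CPM in MG and 5.03, 6.17, 5.94 and 6.61 in BMDM (1.07 ± 0.76, adjusted p = 1). Of 10 astrocyte genes only Slc1a3, a glutamate transporter that microglia can also express, passed (3.40 ± 0.75, adjusted p = 0.0135), and none of the oligodendrocyte, neuron, endothelial or choroid plexus genes did. The part of tumour or glial RNA in the genes higher in MG was not tested. Slc1a3 missed the threshold without any 1 of mice 68343, 68345 or 68346 (adjusted p from 0.0598 to 0.122).

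The gap was then set beside that in vehicle tumours, which share no mouse with it. In vehicle, 604 genes were higher and 796 lower in MG (3.8% and 5.01%, together 8.8% of 15901). Of the 113 genes higher in MG after IR, 110 were also higher in vehicle, that is 97.3% of the 113 and 18.2% of the 604. Of the 245 lower genes, 223 were shared, 91% of the 245 and 28% of the 796. No gene passed in opposite directions. A gene that passed in 1 stage only is not thereby shown to differ between them. When the difference of the gaps was tested, no gene passed in the edgeR fit of all 46 libraries, 721 had an unadjusted p below 0.05 (4.53%), and the smallest adjusted p was 0.0925. DESeq2 called 139 genes (130 with a gap above that in vehicle, 9 below), the fit of these 16 libraries alone 147 (130 and 17 of 13004, 1% and 0.131%, together 1.13%), and the fit without the 5 mice named above as having doubted libraries 73.

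The microglia and blood-derived lists had smaller medians after IR than in vehicle. The microglia list stood at 2.14 after IR and 3.57 in vehicle, where 20 of 20 genes passed. The blood-derived list stood at -2.60 and -4.42, where 20 of 22 passed. For 6 of 20 microglial genes the gap was below that in vehicle at an unadjusted p under 0.05 (1.87% of all genes), and for 10 of 22 blood-derived genes above it (2.67% of all genes). Gpr34 was 3.30 ± 0.31 in vehicle, so that the difference of gaps was -1.39 ± 0.41 (unadjusted p = 0.00241, adjusted p = 0.379). Cd44 was -3.31 ± 0.34 in vehicle, a difference of gaps of 1.67 ± 0.44 (adjusted p = 0.345, and 0.0184 in the fit of the 16 libraries). Itga4, the gate's gene, was -5.10 ± 0.46 in vehicle, and the difference of gaps was 1.96 ± 0.57 (adjusted p = 0.375). By population, the mean level of the microglia list was 8.48 ± 0.21 (SD, n = 4) in MG after IR and 9.25 ± 0.65 in vehicle, and 6.17 ± 0.71 and 5.93 ± 0.38 in BMDM. For the blood-derived list it was 3.80 ± 0.52 and 2.93 ± 0.94 in MG, and 6.39 ± 0.46 and 6.83 ± 0.76 in BMDM. Marker genes of other cells in BMDM differed in level as well, with no test made: dendritic cell genes summed to 230 to 360 CPM after IR and 917 to 1892 CPM in vehicle, and T and NK cell genes to 7.7 to 12.1 and 25.9 to 361 CPM. B and plasma cell genes summed to 19.9 to 32.6 and 25.6 to 330 CPM, neutrophil genes to 127 to 193 and 281 to 1842 CPM, and glioma and precursor genes to 161 to 371 and 10.1 to 20.7 CPM. The ranges of the 2 stages overlapped for the B and plasma cell genes and not for the other 4 lists, and the part of these cells in the change of the gaps was not tested.

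MHC class II genes had medians of -3.44 after IR and -4.47 in vehicle. The chain gene H2-Aa was -4.60 ± 0.50 in vehicle (difference of gaps -0.66 ± 0.63), and Cd74 -4.33 ± 0.46 (0.03 ± 0.58). Over the 10 genes the median difference of gaps was 0.56, and for 2 the gap was above that in vehicle at an unadjusted p under 0.05, H2-DMb1 (0.82 ± 0.34) and H2-DMb2 (1.96 ± 0.51). In the fit of the 16 libraries H2-DMb2 and H2-Ob (1.43 ± 0.71 in the fit of all libraries) passed. Class II RNA summed to 6296 to 18450 CPM in BMDM after IR and 30256 to 47196 CPM in vehicle, and to 610 to 1210 and 1697 to 2169 CPM in MG. Among hypoxia and glycolysis genes, 11 of 22 were higher and 2 lower in MG in vehicle (3.8% and 5.01% of all genes). None passed after IR, though the fit of the 8 libraries called 4 higher and 5 lower (17.1% and 13.6% of all genes). At an unadjusted p under 0.05 the gap was below that in vehicle for 12 of 22 and above it for 1. Over all genes this held for 1.87% and 2.67%. Tpi1, the triose phosphate isomerase, was 1.10 ± 0.21 in vehicle and -0.33 ± 0.21 after IR (adjusted p of the difference 0.0925, and 0.0464 in the fit of the 16 libraries). Hmox1, the heme oxygenase, was 1.41 ± 0.26 and -0.47 ± 0.26 (adjusted p = 0.0925). Of 27 interferon-induced genes, 11 were lower in MG in vehicle (5.01% of all genes) and none after IR, with medians of -1.24 and -0.30. The fit of the 8 libraries after IR called 10 lower and 2 higher (13.6% and 17.1% of all genes). At an unadjusted p under 0.05 the gap was above that in vehicle for 6 of 27 (2.67% of all genes). None passed for the difference of gaps in the fit of all 46 libraries, and 4 did in that of the 16. Cdkn1a was lower in MG in vehicle (-0.77 ± 0.21, adjusted p = 0.0204) but not after IR, and the difference of gaps was 1.21 ± 0.29 (adjusted p = 0.275). The vehicle pairs also differed in Lars2 (3.91 ± 0.81) and Malat1 (-2.28 ± 0.45), and their gaps after IR differed from these by -4.05 ± 1.000 and 2.21 ± 0.61 (adjusted p = 0.297 and 0.368). When each library's Malat1 level less its Lars2 level was added to the model, 488 instead of 721 genes had an unadjusted p below 0.05 and none passed with edgeR. The part of RNA handling in the difference between the gaps was not tested beyond this term.

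**Figure D5:**
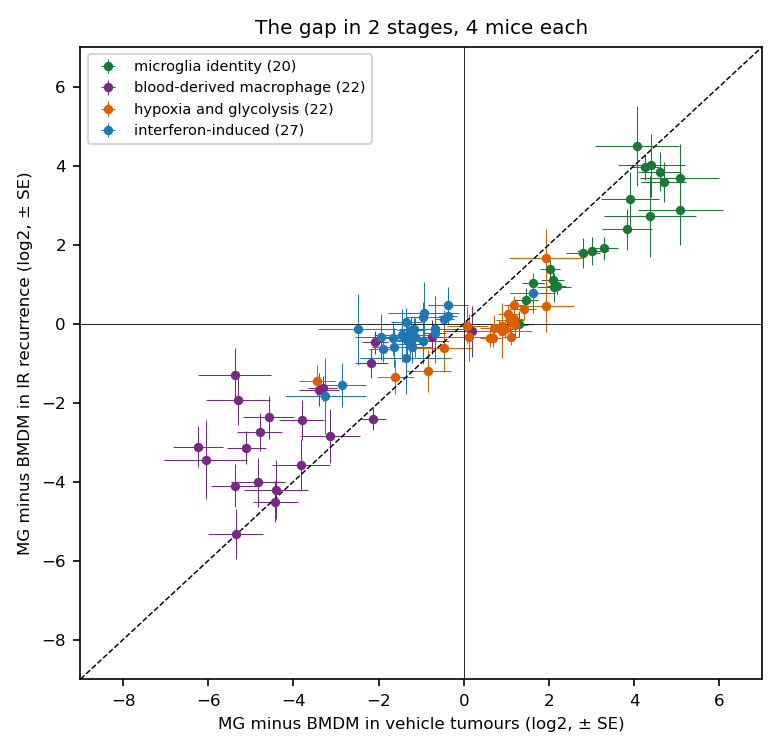
MG minus BMDM difference (log2, ± SE from edgeR) in vehicle tumours (x axis) and in IR recurrence (y axis), 4 mice each, for the members of 4 lists; the dashed line marks equal gaps. Blood-derived genes (purple) lie mostly above the line on the lower left, and microglial genes (green) mostly below it on the upper right. Hypoxia and glycolysis genes (orange) run from -3.45 to 1.93 on the x axis (median 0.89). On the y axis they run from -1.45 to 1.65 (median -0.11).

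Recurrence after IR together with BLZ945 gave a gap of 297 higher and 442 lower genes (1.87% and 2.78%, together 4.65%). Of the 113 and 245 genes found after IR alone, 102 and 206 passed there too, 90.3% and 84.1% of them and 34.3% and 46.6% of the 297 and 442. No gene passed for a difference between the 2 gaps in the edgeR fit of all 46 libraries or in DESeq2, 436 had an unadjusted p below 0.05 in that edgeR fit (2.74%), and the fit of these 16 libraries alone called 10. The median of the microglia list was 2.14 after IR and 2.94 after the combination, that of the blood-derived list -2.60 and -3.18, and that of MHC class II -3.44 and -3.13. Csf1r was 1.07 ± 0.22 after the combination (adjusted p = 0.00471) and 0.89 ± 0.22 after IR, a difference of -0.17 ± 0.31 (adjusted p = 1).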

How the data were processed

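RNA of sorted MG and BMDM was sequenced from Smart-Seq libraries, per the labels' protocols. The authors deposited 1 table of raw counts per gene and library; CASAVA 1.8, STAR 2.5.0e, HTSeq, DESeq2 and the mm10 build are named in the submitters' processing notes. Here edgeR 4.0.16 (R 4.3.3) was fitted to the counts of all 46 libraries with the mouse as a block, TMM scaling and a low-count filter (minimum count 10, minimum total 15), giving 15901 genes and 16 residual degrees of freedom. SE is the size of the difference divided by the root of edgeR's F. The series text states that the libraries are paired: deviations from the group means correlated at r = 0.230 to 0.317 within the 4 mice and at -0.268 to 0.0808 across mice, over genes. Each group mean includes the same 4 libraries, so positive values within mice push those across mice downward. No 2 of the 4 MG or of the 4 BMDM libraries agreed within sampling noise. List genes were matched by symbol (557 of 567) or synonym (8), and positions come from GRCm38, the assembly behind mm10. Named genes are the 10 largest differences in each direction (adjusted p under 0.05, mean of at least 3 log2 CPM, 1 direction in 4 mice), up to 4 called members of each list by smallest p or 2 where none passed, and genes followed throughout; Apoe, C1qa, C1qb, C1qc, Cd44, Cx3cr1, Fscn1, Gatm, Gpr132, H2-DMa, H2-DMb1, H2-DMb2, H2-Oa, H2-Ob, Hmox1, Il10, Lipa, Ninj1, P2ry12, Pdgfb, Pdgfra, Prdx1, Rgs2, Runx2, S100a8, S100a9, Tmem119, Tpi1 and Ttr were added after their values were seen. Lists, genes and rule were chosen with earlier results of these data known. Fits were tested on simulated data, in which 100 genes were given a difference of 1 log2 unit and 100 a difference of 2. The fit of all 46 libraries recovered 14% and 55% of these, and called 0 of 15701 unchanged genes. Genes that did not pass can thus hold differences of these sizes. Some genes are not reported here. DESeq2 1.42.0, other scaling, filters, sample sets and a fit without the block were alternatives.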

Additional observations from a re-analysis of the deposited data

Results flagged for a closer look

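In 14 of 318 groups of 4 libraries, 1 library stood apart from the other 3 by Dixon's ratio, while chance marks about 1 in 20 such groups. Levels are log2 CPM. C1qb, a C1q chain, stood at 12.41 in MG of mouse 68344 against 12.47 to 12.48 in the other 3 mice. Cd9, a tetraspanin, stood at 8.40 in BMDM of mouse 68343 against 9.07 to 9.11 in the other 3 mice. Cst7, a protease inhibitor, stood at 8.15 in MG of mouse 68345 against 8.40 to 8.43 in the other 3 mice. Cx3cr1, the fractalkine receptor, stood at 10.41 in MG of mouse 68344 against 9.85 to 9.94 in the other 3 mice. Cxcl13, a B cell chemokine, stood at 10.89 in MG of mouse 68343 against 5.05 to 5.54 in the other 3 mice. Emr4, an adhesion receptor, stood at -2.07 (2 counts) in MG of mouse 68346 against -1.17 to -0.99 in the other 3 mice. Fcer1a, a chain of the IgE receptor, stood at -0.30 (9 counts) in BMDM of mouse 68345 against no count in the other 3 mice. Gpr84, the fatty acid receptor, stood at 5.49 in BMDM of mouse 68343 against 6.77 to 6.93 in the other 3 mice. Il10, the anti-inflammatory cytokine, stood at -3.53 (no count, in the shallow library) in MG of mouse 68344 against -0.12 to 0.02 in the other 3 mice. Lyve1, the hyaluronan receptor of border macrophages, stood at -2.04 (2 counts) in BMDM of mouse 68346 against -1.09 to -1.02 in the other 3 mice. Emr4, Fcer1a, Il10 and Lyve1 were thus near the limit of detection. Mki67, the proliferation antigen, stood at 6.67 in BMDM of mouse 68346 against 6.12 to 6.19 in the other 3 mice. Sall1, the microglial transcription factor, stood at 7.26 in MG of mouse 68344 against 6.79 to 6.86 in the other 3 mice. The mean level of the B and plasma cell list was -1.44 in MG of mouse 68343 against -2.32 to -2.22 in the other 3 mice (log2 CPM). The mean level of the B and plasma cell list was -1.25 in BMDM of mouse 68346 against -0.14 to 0.06 in the other 3 mice (log2 CPM). In the edgeR fit of all 46 libraries no gene passed for the difference of the gap after IR from that in vehicle or after the combination.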

How the results depend on the processing

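The direction of each of the 82 named genes that passed held under each alternative run. Mki67, Malat1, Lars2, Xist and the Y-linked Eif2s3y, which did not pass, took either sign in the refits without 1 mouse. Of the 358 calls, the fit without the pairing (no block for the mouse) gave 303, RLE scaling 348, no low-count filter 313 and the Malat1 and Lars2 term 353. Apart from the refits without 1 mouse, counts moved by more than 1.5 times under 3 settings: 3835 (2132 higher, 1703 lower) in the fit of the 8 libraries, 672 (278 and 394) without the 5 mice of doubted libraries, and 647 (292 and 355) with DESeq2. Genes higher in MG made up 31.6% of calls, 55.6% in the 8 libraries, 41.4% without the doubted mice and 45.1% with DESeq2. Without 1 mouse the total fell by more than 1.5 times as well, to 121 to 191, with 37 to 70 higher and 84 to 121 lower. For the difference from the vehicle gap, 0 genes passed in the main test, 3 without the block, 147 in the fit of its 16 libraries, 73 without the doubted mice, 139 with DESeq2, 0 without any 1 mouse after IR, and 0 to 1 without 1 vehicle mouse (1 without mouse 65966). For the difference from the combination's gap the fit of its 16 libraries gave 10 and each other setting 0. Of 82 named genes that passed, 35 passed in each refit without 1 mouse and 17 in none. Without the block Apoc2, Arg1, Chi3l3, Csf1r, Cst7, Cxcl13, Egr1, Gatm, Il1a, Itgb3, Lipa, Mlph, Prdx1, Rgs2 and Spic missed the threshold; without the low-count filter Apoc2, Arg1, Cxcl13, Itgae, Itgb3, Mlph, Sall1 and Slc1a3 did, and with RLE scaling Lipa and Ninj1; Itgb3 did with the Malat1 and Lars2 term, and H2-Oa and Itgae without the doubted mice. The causes of these changes were not tested, beyond the fewer pairs of the refits. Depth limits MG of mouse 68344, where 3 counts equal 0.652 CPM, against 0.213 to 0.254 CPM in the other 7 libraries.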

Other observations

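MG and BMDM of mouse 68343 held RNA of the neutrophil alarmins S100a8 and S100a9 above the level of the other mice. S100a8 was at 6.75, -0.12, 2.10 and 0.61 log2 CPM in MG and 3.53, -1.35, 2.50 and -0.33 in BMDM, and S100a9 at 6.75, -1.76, 0.90 and -2.07 log2 CPM in MG and 3.60, -2.62, 1.07 and -2.60 in BMDM. Neither passed between the populations (adjusted p = 1 and 0.994). Ttr, the transthyretin of the choroid plexus, followed the mouse as well, with 4.20, -3.53, 2.12 and -1.68 log2 CPM in MG and 3.98, -2.62, 1.69 and -3.53 in BMDM.

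Some genes that were lower in MG after IR had an unadjusted p above 0.05 for the gap in vehicle, among them the creatine synthesis enzyme Gatm (-0.86 after IR and -0.37 in vehicle), the peroxiredoxin Prdx1 (-1.01 and -0.04), the membrane rupture protein Ninj1 (-1.07 and -0.27), the lysosomal acid lipase Lipa (-0.88 and -0.20) and the G protein regulator Rgs2 (-1.20 and -0.03). The difference of the gaps did not pass for any of these 5 genes, and none of them passed between the populations in a refit without 1 mouse (adjusted p from 0.053 to 0.372; for the difference of the gaps from 0.628 to 1).

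The RNA of the 13 glioma and precursor genes was also set beside the vehicle tumours. Their mean level was 4.08 ± 0.42 log2 CPM (SD, n = 4) in MG and 2.93 ± 0.29 in BMDM after IR. In vehicle it was 0.00 ± 0.88 in MG and -1.004 ± 0.41 in BMDM. The summed RNA of these genes was 436 to 928 CPM in MG and 161 to 371 CPM in BMDM after IR. In vehicle the sums were 59.1 to 106 CPM in MG and 10.1 to 20.7 CPM in BMDM. The 8 libraries after IR lay above the 8 vehicle libraries. This difference between stages was not tested, nor was the part of tumour cell RNA in the differences between the populations.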
